A study of Bos taurus with 8 samples.

Results

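The genes described are 7 of the 18825 in the expression table of bovine embryo cells, picked by name as genes of the ruminant placenta and of early pregnancy: the interferon tau genes IFNT2 and IFNT3, the pregnancy-associated glycoprotein genes PAG2 and PAG11, the trophoblast Kunitz domain protein gene TKDP1, the prostaglandin synthase gene PTGS2 and PLAC8. Polyadenylated RNA was sequenced from 286 single cells of wildtype embryos aged 6, 7, 8 or 9 days from fertilization, in 6 pooled libraries that carry the replicate numbers 1 to 6. The authors' cell table gives each cell 1 of 7 classes. These are Morula on day 6 (58 cells), EB on day 7 (39 cells), MB ICM (51 cells) and MB TE (37 cells) on day 8, and LB EPI (45 cells), LB PE (25 cells) and LB TE (31 cells) on day 9. EB, MB and LB are written as the table gives them, and TE, ICM, PE and EPI stand for trophectoderm, inner cell mass, primitive endoderm and epiblast. All cells were untreated. The labels name no breed, no embryo and no way in which the embryos were made. Another 2 libraries, from day 6 morulae injected with BE3 mRNA with or without SOX2 guides, were not analysed here.

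Trophectoderm is the outer layer of the blastocyst and the source of the embryo's part of the placenta. In cattle and sheep this layer secretes interferon tau, a type I interferon that keeps the corpus luteum alive and so maintains early pregnancy. Later trophoblast cells also secrete pregnancy-associated glycoproteins, relatives of aspartic proteases, and Kunitz domain proteins, relatives of protease inhibitors, while the elongating embryo is a rich source of prostaglandins. Interferon tau, pregnancy-associated glycoproteins and Kunitz domain proteins each form large families of close copies.

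Reads of one copy may therefore be counted for another, or lost, and each value of a family gene is uncertain for the single copy. The table holds 4 interferon tau entries, and 4 entries with a PAG symbol, against 19 numbered pregnancy-associated glycoprotein genes named in the assembly ARS-UCD2.0 (PAG1 left aside). In the row order of the expression table IFNT3 and IFNT2 stand next to each other, as do PAG2 and PAG10, PAG11 and PAG7, and TKDP1 and TKDP4. Their places in the genome were not looked up. In ARS-UCD2.0 the symbol PLAC8 is an older name of 2 genes, PLAC8A and PLAC8B, so the row could belong to either. The other 6 symbols each match 1 gene. Levels are given as CPM, the reads of a gene scaled to 1000000 reads assigned to genes in that cell, averaged over the cells of one class in one library. Gene lengths are not taken into account, so levels are compared between classes and not between genes.

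An average was used where a library held at least 3 cells of a class, which left 16 averages. Morula had replicates 4 and 6, EB replicate 4 alone, MB ICM replicates 1, 2 and 5, MB TE replicates 1, 2 and 3, LB EPI replicates 2, 3 and 5, and LB PE and LB TE replicates 3 and 5. Cells held 2633 to 747345 reads, with class medians from 39210 in LB PE to 198116 in MB TE. The 13 trophectoderm markers summed to between 36241 and 65676 CPM in MB TE and between 36801 and 49174 in LB TE, against at most 9167 in any average of the other classes. In the TE averages the summed markers of cumulus cells were at most 23.1 CPM, and those of blood at most 16.8. The fibroblast list reached 140.9 CPM there, against a range of 125.9 to 696.4 in MB ICM. In the 2 Morula averages the cumulus list ranged from 8.56 to 1025 CPM and the fibroblast list from 59.0 to 649.5. The part of such transcripts in the Morula values was not tested. The authors drew the classes from the cells tested here, by a method not given in the sources used here. P-values reflect only how far libraries differ, and part of that may be technical.

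IFNT3 was low until day 8 and stood highest in trophectoderm on both later days. It was at 5.48 and 2.41 CPM in the Morula averages (replicates 4 and 6) and at 1.46 in EB. On day 8 the MB TE averages were 34.3, 402.4 and 64.9 CPM in replicates 1, 2 and 3, and the MB ICM averages 0.993, 13.6 and 1.92 in replicates 1, 2 and 5. All MB TE averages lay above all MB ICM averages, and replicate 2 was the highest library in both classes. On day 9 IFNT3 was at 555.9 and 246.7 CPM in LB TE (replicates 3 and 5), at 13.2, 23.6 and 16.3 in LB EPI (replicates 2, 3 and 5) and at 52.7 and 11.7 in LB PE (replicates 3 and 5). Again no average of another day 9 class reached those of LB TE. In order, the class means were 401.3 ± 219 CPM in LB TE (SD, n = 2), 167.2 ± 204 in MB TE (n = 3), 32.2 ± 29 in LB PE (n = 2), 17.7 ± 5.3 in LB EPI (n = 3) and 5.49 ± 7.01 in MB ICM (n = 3). Each of these classes overlapped its neighbours in that order, and Morula and EB lay within the range of MB ICM.

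IFNT2, the other interferon tau gene, was above 5 CPM in only 1 of the 16 averages. Its LB TE averages were 59.6 and 1.76 CPM (replicates 3 and 5), and its MB TE averages 1.51, 4.68 and 2.04 (replicates 1, 2 and 3). LB EPI held 0, 1.21 and 0.0865 CPM (replicates 2, 3 and 5), LB PE 3.51 and 0 (replicates 3 and 5) and MB ICM 0, 0.198 and 0 (replicates 1, 2 and 5). The LB TE average of replicate 5 was thus lower than the LB PE average of replicate 3, on 5 and 4 reads. Of the 31 LB TE cells 18 had an IFNT2 read, against 5 of 37 MB TE cells. The remaining interferon tau entries, IFN-tau-c1 and IFN-TAU, were at 3.38 ± 4.2 and 6.64 ± 7.44 CPM in LB TE (SD, n = 2) and below 2 CPM in every other class mean of days 8 and 9.

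PAG2 was present in all classes and highest in trophectoderm. It was at 15.5 and 0.614 CPM in Morula (replicates 4 and 6) and at 9.85 in EB. MB TE held 116.1, 300.3 and 179.9 CPM (replicates 1, 2 and 3) and MB ICM 12.9, 19.4 and 4.12 (replicates 1, 2 and 5), with no overlap. On day 9 LB TE held 694.2 and 202.6 CPM, LB PE 40.5 and 30.9 (replicates 3 and 5 in both) and LB EPI 15.9, 24.8 and 9.94 (replicates 2, 3 and 5). The 3 day 9 classes did not overlap, while LB TE overlapped MB TE. The LB PE average of replicate 5 rests on 5 reads in 3 cells, and 57.2% of its sum is 1 read in the cell of 6295 reads, without which it would be 14.9 CPM, inside the range of LB EPI. The Morula value of replicate 4 came almost wholly from 1 cell, with 32 PAG2 reads (186.9 CPM), which gave 93.0% of the summed values.

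PAG11 had no read in any of the 58 Morula and 39 EB cells. It was at 0.256, 11.9 and 5.86 CPM in MB TE (replicates 1, 2 and 3) and at 0, 1.05 and 0 in MB ICM (replicates 1, 2 and 5). On day 9 it was at 55.4 and 7.78 CPM in LB TE and 2.25 and 17.7 in LB PE (replicates 3 and 5 in both), and at 0.407, 2.45 and 0.0865 in LB EPI (replicates 2, 3 and 5). LB TE lay above LB EPI, but LB PE of replicate 5 was above LB TE of the same library. That LB PE value rests on 1 PAG11 read in the same cell of 6295 reads, where a single read is worth 158.9 CPM. The cell shares its barcode with the LB TE cell of replicate 3 that had the most PAG2 and PAG11 (12232 and 440.5 CPM). The part of stray reads between libraries in that value was not tested. Of the other entries of the family, PAG10 was seen in MB TE alone among the day 8 and 9 classes (0.307 ± 0.532 CPM, n = 3) and PAG7 was at 0 in all of them.

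TKDP1, a member of the Kunitz domain family that trophoblast secretes, had its highest levels on day 9. It was at 4.0 and 0.453 CPM in Morula (replicates 4 and 6), 0.275 in EB, 0.514, 2.39 and 6.69 in MB ICM (replicates 1, 2 and 5) and 13.0, 19.7 and 11.4 in MB TE (replicates 1, 2 and 3). LB EPI held 0.747, 6.89 and 20.1 CPM (replicates 2, 3 and 5), LB PE 22.4 and 24.4, and LB TE 116.7 and 195.3 (replicates 3 and 5 in both). LB TE stood apart from all other classes, and LB PE lay next in order, just above the highest MB TE and LB EPI averages. The LB PE average of replicate 5 rests on 8 reads, 48.1% of its sum being 1 read in a cell of 9474 reads. Without that cell it would be 14.2 CPM, below MB TE of replicate 2 and LB EPI of replicate 5. The related entry TKDP4 was at 1.39 ± 1.2 CPM in LB TE (SD, n = 2) and lower in the other classes of days 8 and 9.

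PTGS2 encodes the inducible cyclooxygenase, which makes the precursor of all prostaglandins. It was at 47.9 and 13.9 CPM in Morula (replicates 4 and 6) and 57.9 in EB. On day 8 MB TE held 563.3, 1018.0 and 654.3 CPM (replicates 1, 2 and 3) and MB ICM 63.7, 101.6 and 221.8 (replicates 1, 2 and 5). On day 9 LB TE held 1349 and 1913 CPM, LB PE 200.8 and 129.2 (replicates 3 and 5 in both) and LB EPI 46.8, 112.7 and 95.5 (replicates 2, 3 and 5). LB TE was above MB TE and MB TE above all other classes without overlap, while LB PE overlapped MB ICM. That overlap rests on MB ICM of replicate 5, where 2 reads in a cell of 2633 reads give 68.5% of the sum. Without that cell it would be 87.4 CPM and MB ICM would lie below LB PE, whose own replicate 5 would be at 85.7 without its highest cell.

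PLAC8, a small cysteine-rich protein named for its presence in placenta, was already well expressed before a trophectoderm class is named. It was at 366.0 and 235.7 CPM in Morula (replicates 4 and 6), 292.3 in EB, and 189.5, 252.5 and 295.1 in MB ICM (replicates 1, 2 and 5). MB TE held 1578, 2048 and 2280 CPM (replicates 1, 2 and 3) and LB TE 2959 and 4121 (replicates 3 and 5). LB PE stood between, at 658.9 and 526.6 CPM (replicates 3 and 5), and LB EPI was lowest, at 131.1, 273.4 and 259.2 (replicates 2, 3 and 5). LB TE, MB TE and LB PE each occupied a range of their own, and the earlier and inner classes overlapped.

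**Figure D1:**
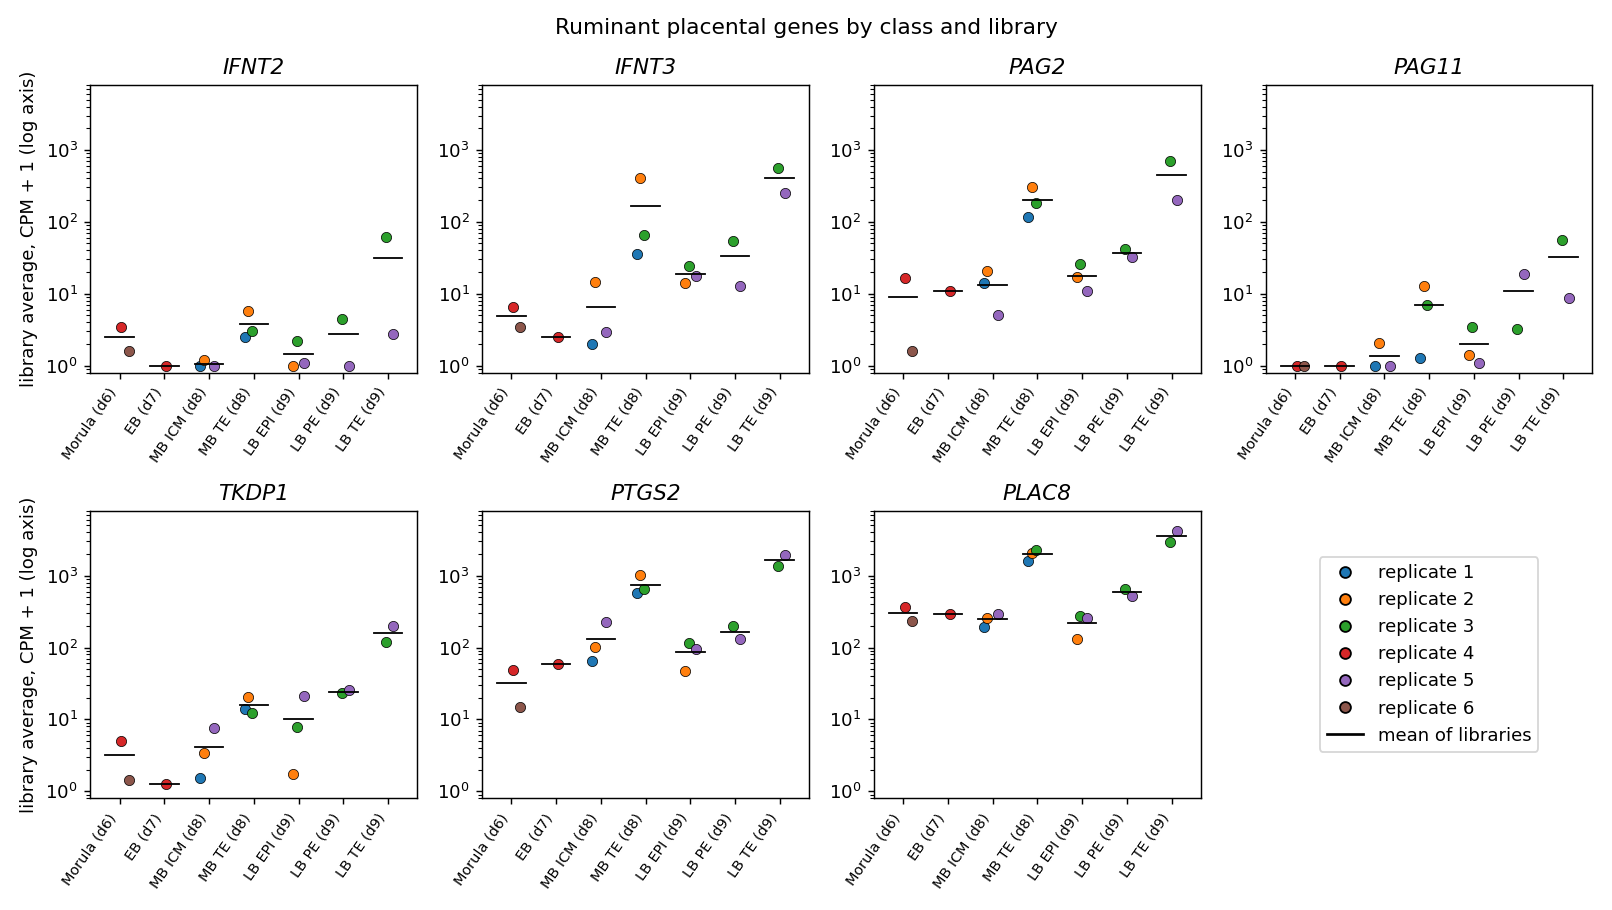
Average level of each gene (vertical axis, CPM + 1, log axis) by class and day (horizontal axis). Each point is 1 library coloured by replicate, and each line is the mean of the libraries. All 7 genes have their highest class mean in LB TE, where the averages of PLAC8 are 2959 and 4121 CPM, while IFNT2 is above 5 CPM in only 1 of the 16 averages.

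The question put first was which of these genes distinguished trophectoderm from the inner cells of the same day. On day 8, 4 of the 7 genes were higher in MB TE than in MB ICM and 0 lower, with a median log2 change of 2.59 over the 7, against -0.04 over the 12540 genes tested. Of all genes tested 5.97% were called higher and 4.11% lower. PAG2 rose by 3.07 (SE 0.41, adjusted p = 3.6e-05), PLAC8 by 2.96 (SE 0.27, adjusted p = 4.31e-07), IFNT3 by 2.82 (SE 0.58, adjusted p = 0.00467) and PTGS2 by 2.59 (SE 0.39, adjusted p = 0.000215). These changes are differences of log2(CPM + 10), which understate the change of genes with low levels, and a gene was called where limma's Benjamini-Hochberg adjusted p was under 0.05. TKDP1 (1.0, SE 0.34, adjusted p = 0.0632), PAG11 (0.52, SE 0.39, adjusted p = 0.468) and IFNT2 (0.21, SE 0.38, adjusted p = 0.83) did not pass, though TKDP1 did without replicate 5 (adjusted p = 0.0489). Within the libraries that held both classes, the IFNT3 difference was 2.01 in replicate 1 and 4.13 in replicate 2. The IFNT3 call did not hold with a pseudocount of 50 (adjusted p = 0.0789) or with limma-voom on summed reads (adjusted p = 0.0709).

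On day 9 all 7 genes were called higher in LB TE than in LB EPI (6 with no filter on low genes, without IFNT2), with a median log2 change of 3.92 against -0.04 over all genes tested, of which 8.27% were called higher and 6.9% lower. PLAC8 (3.93, SE 0.30, adjusted p = 2.71e-08), PTGS2 (4.11, SE 0.44, adjusted p = 3.79e-06), PAG2 (3.95, SE 0.45, adjusted p = 4.38e-06) and TKDP1 (3.15, SE 0.38, adjusted p = 6.45e-06) had the smallest p-values. IFNT3 rose by 3.92 (SE 0.65, adjusted p = 0.000566), PAG11 by 1.66 (SE 0.43, adjusted p = 0.0113) and IFNT2 by 1.47 (SE 0.43, adjusted p = 0.0236). IFNT2 met the filter of 10 CPM only through LB TE of replicate 3, the group where it is high, so neither its call nor the count of 7 is support. Without that library it was not tested. Both PAG11 and IFNT2 rested on replicate 3. Without it the PAG11 change was 0.86 (adjusted p = 0.253), and inside replicate 5 the IFNT2 difference was 0.22, against 2.63 inside replicate 3. The IFNT2 call was also lost without replicate 2 (adjusted p = 0.0838), with a pseudocount of 50 (0.0659) and with no filter on low genes (0.0558).

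Against the primitive endoderm, 5 of the 7 genes were higher in LB TE and 0 lower (median log2 change 2.55, against -0.02 over all genes), where 3.39% of genes tested were called higher and 2.46% lower. PTGS2 rose by 3.24 (SE 0.47, adjusted p = 0.000385), PLAC8 by 2.55 (SE 0.32, adjusted p = 5.71e-05), PAG2 by 3.09 (SE 0.49, adjusted p = 0.000546), TKDP1 by 2.27 (SE 0.41, adjusted p = 0.00139) and IFNT3 by 3.37 (SE 0.70, adjusted p = 0.00802). IFNT2 (1.30, adjusted p = 0.113) and PAG11 (0.89, adjusted p = 0.303) did not pass. With 2 libraries a class, the calls of 3 genes were lost when 1 of them was left out. IFNT3 had an adjusted p of 0.0627 without replicate 3 and 0.157 without replicate 5, PAG2 had 0.0592 without replicate 3, and TKDP1 had 0.0588 without replicate 5. With limma-voom on summed reads IFNT3 (adjusted p = 0.14) and TKDP1 (0.0584) did not pass, nor did TKDP1 with a pseudocount of 1 (0.109) or IFNT3 with the mean of log2 values over cells (0.0729). Without replicate 5, which leaves 1 average in LB TE and 1 in LB PE, IFNT2 was at 2.37 and PAG11 at 2.42. IFNT2 met the filter of 10 CPM only through that LB TE average, of replicate 3, so its value is no support.

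Between the inner layers of day 9, only PLAC8 of the 7 was called, higher in LB PE than in LB EPI by 1.39 (SE 0.30, adjusted p = 0.00759), where 2.98% of genes tested were called higher and 2.41% lower. That call did not hold without replicate 2 (adjusted p = 0.0555) or replicate 3 (adjusted p = 0.0704). The changes of the other 6 genes lay between 0.17 for IFNT2 and 0.88 for TKDP1, with adjusted p-values from 0.197 to 0.911. Of the 13 trophectoderm markers 4 were also higher in LB PE than in LB EPI and 1 lower. The summed level of these markers ranged from 4224 to 9167 CPM in LB PE, from 2220 to 3743 in LB EPI and from 36801 to 49174 in LB TE, and none of them was at 0 in LB PE. The part of such transcripts, and of the lower depth of LB PE cells, in the PLAC8 difference was not tested.

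**Figure D2:**
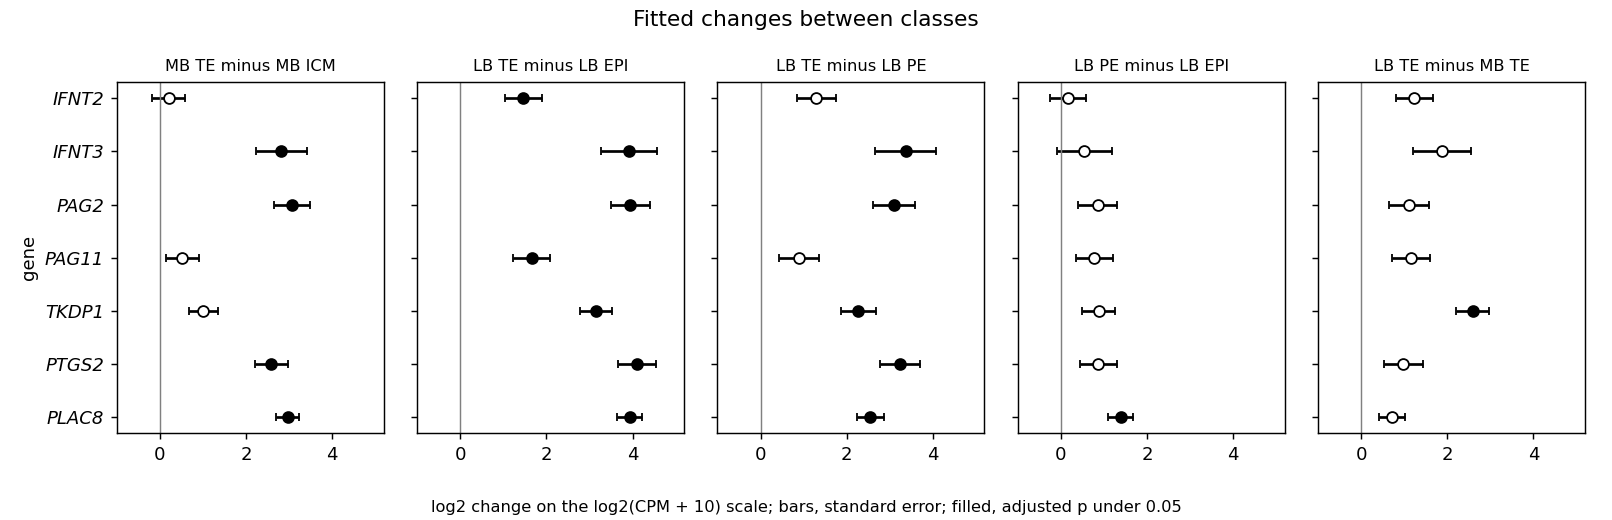
Log2 change of each gene on the log2(CPM + 10) scale (horizontal axis) in 5 comparisons, with bars of 1 standard error. Filled points passed an adjusted p of 0.05. All 7 points are filled for LB TE minus LB EPI, and TKDP1 alone is filled for LB TE minus MB TE.

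A second question was when the genes came on. From Morula to EB 0 of the 7 was called in limma, where 0.0399% of all genes tested were called higher and as many lower. The count was also 0 at an unadjusted p under 0.05 and with limma-voom, and the changes lay between -0.30 for IFNT3 and 0.75 for PTGS2. MB TE set against EB gave 3 genes higher, PTGS2 by 3.60 (adjusted p = 0.0049), PAG2 by 3.33 (adjusted p = 0.00773) and PLAC8 by 2.78 (adjusted p = 0.00106), where 0.534% of genes tested were called higher and 0.463% lower, and the median change of all genes was -0.14. IFNT3 (3.24, adjusted p = 0.114) and TKDP1 (1.35, adjusted p = 0.297) did not pass, IFNT3 reaching 0.0208 with a pseudocount of 1 and 0.0286 without replicate 1. EB was a single average, of replicate 4, so both comparisons with EB assume that it varies like the other classes. That library had no MB TE average, so stage and library cannot be told apart between EB and MB TE. PAG2 missed the threshold without replicate 2 (adjusted p = 0.0875) or 3 (0.0608). With averages of at least 1 cell, which give EB 3 averages, PTGS2 did not pass (2.23, adjusted p = 0.275) and IFNT3 did (2.64, adjusted p = 0.0402).

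From day 8 to day 9 trophectoderm, TKDP1 was the only one of the 7 genes called, higher in LB TE by 2.59 (SE 0.39, adjusted p = 0.00322), where 0.159% of genes tested were called higher and 0.0319% lower. Replicate 3, the library with averages of both classes, gave a TKDP1 difference of 2.57. It missed the threshold when replicate 3 (adjusted p = 0.205) or replicate 5 (0.0626) was left out, and with a pseudocount of 1 (0.509). IFNT3 was higher by 1.88 (SE 0.67, adjusted p = 0.575), IFNT2 by 1.24, PAG11 by 1.17, PAG2 by 1.11, PTGS2 by 0.98 and PLAC8 by 0.72, and none of these 6 passed. All 7 genes had an unadjusted p under 0.05, but the share of all genes under it was not computed, so that count is no support. IFNT3 passed only when replicate 2, its highest MB TE library, was left out (2.78, adjusted p = 0.0239). Without replicate 5 IFNT2 was at 2.45, which rests on 1 LB TE average, the one through which IFNT2 met the filter, and is no support. A test of whether the TE difference was larger on day 9 (LB TE minus LB EPI) than on day 8 (MB TE minus MB ICM) called 0 of the 7. It called 0.215% of genes tested higher and 0.152% lower, and with limma-voom also 0 of the 7. At an unadjusted p under 0.05 it had 4 of the 7, again with no share over all genes computed. TKDP1 came nearest, at 2.15 (SE 0.50, adjusted p = 0.0662; 0.00276 with a pseudocount of 50), and PTGS2 was at 1.52 (adjusted p = 0.349).

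Behind the averages, the 7 genes differed in how evenly cells carried them. PLAC8 and PTGS2 had reads in every TE cell. Among the 31 LB TE cells PLAC8 ran from 1547 through a median of 3061 to 5886 CPM, and PTGS2 from 127.7 through 1275 to 4123. The highest cell supplied 9.47% and 15.5% of the summed PLAC8 values in replicates 3 and 5, and 14.6% and 16.7% of those of PTGS2. For these 2 genes the mean of a library lay near its median cell.

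For IFNT3, PAG2 and IFNT2 in LB TE it lay far above it. In replicate 3, 1 cell of 21 stood at 8391 CPM of IFNT3 (1649 reads) and gave 71.9% of the summed values, the next cell was at 508.6 and the median at 75.3. In replicate 5, 1 cell of 9 stood at 1758 CPM (482 reads) and gave 79.2%, with the next cell at 109.5 and the median at 67.4. The MB TE medians lay on both sides of these, at 8.81, 290.6 and 70.9 CPM in replicates 1, 2 and 3. PAG2 had the same shape. Its highest LB TE cell of replicate 3 stood at 12232 CPM (1083 reads), 83.9% of the summed values, with the next cell at 818.9 and the median at 52.2. In replicate 5 the highest cell stood at 1517 CPM (416 reads), 83.2% of the sum, and the median was 42.1. These PAG2 medians lay below the MB TE medians of 128.5 and 193.4 CPM in replicates 2 and 3 and above that of 26.5 in replicate 1.

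The highest cells were not the same for each gene. In replicate 3 the cell with 8391 CPM of IFNT3 also had the most IFNT2 (987.2 CPM, 194 reads), but ranked 14 of 21 for PAG2 (45.8 CPM), 17 for PTGS2 (493.6 CPM) and 21 for PLAC8 (1547 CPM). The cell with 12232 CPM of PAG2 had the most PAG11 (440.5 CPM) and PTGS2 (4123 CPM) of that library, ranked 3 for IFNT3 (451.8 CPM) and had no TKDP1 read. In replicate 5 a single cell led both IFNT3 and PAG2. These 3 cells held 196521, 88537 and 274251 reads, and had KRT18, a keratin of trophectoderm, at 6681, 10323 and 7041 CPM. Their CDX2, also a trophectoderm marker, was at 50.9, 11.3 and 3.65 CPM, where the LB TE averages ran from 35.3 to 44.9. GATA3, another such marker, was at 264.6, 112.9 and 390.2 CPM, where the LB TE averages ran from 388.6 to 466.9. NANOG, an epiblast factor, was at 5.09, 11.3 and 98.5 CPM in the 3 cells. All 48 cell barcodes were used in more than 1 library. Among the 5 cells elsewhere with the same barcode, the highest value was 12.9 CPM for the IFNT3 cell of replicate 3. For the PAG2 cell it was 158.9 CPM, 1 read in the LB PE cell of replicate 5 with 6295 reads. That LB PE cell also held the only PAG11 read of its class in replicate 5. For the LB TE cell of replicate 5 the highest values were 451.0 (IFNT3) and 504.5 CPM (PAG2). Whether reads passed between libraries was not tested.

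At the depth sequenced and with libraries pooled, TKDP1 was detected in few day 8 cells. On day 9 it was detected in 27 of 45 LB EPI and 13 of 25 LB PE cells, but libraries differed. LB EPI had it in 0 of 1, 2 of 11, 6 of 9 and 19 of 24 cells of replicates 1, 2, 3 and 5. LB PE had it in 0 of 2, 7 of 14 and 6 of 9 cells of replicates 2, 3 and 5. With cells thinned to 20000 reads TKDP1 was found in 32.3% of LB TE, 30.0% of LB PE, 11.6% of LB EPI and 8.11% of MB TE cells. Without thinning it had a read in 10 of 37 MB TE cells, and 1 cell of 261.5 CPM gave 95.7% of the MB TE sum in replicate 1. In LB TE 22 of 31 cells had a read, the highest cells stood at 1108 and 1039 CPM in replicates 3 and 5 (45.2% and 59.1% of the sums), and the medians were 16.2 and 16.8. IFNT3 in MB TE also differed between libraries cell by cell. In replicate 2 all 12 cells had reads, from 98.3 through a median of 290.6 to 1451 CPM, while in replicate 1 the median of 21 cells was 8.81 and 9 had no read.

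**Figure D3:**
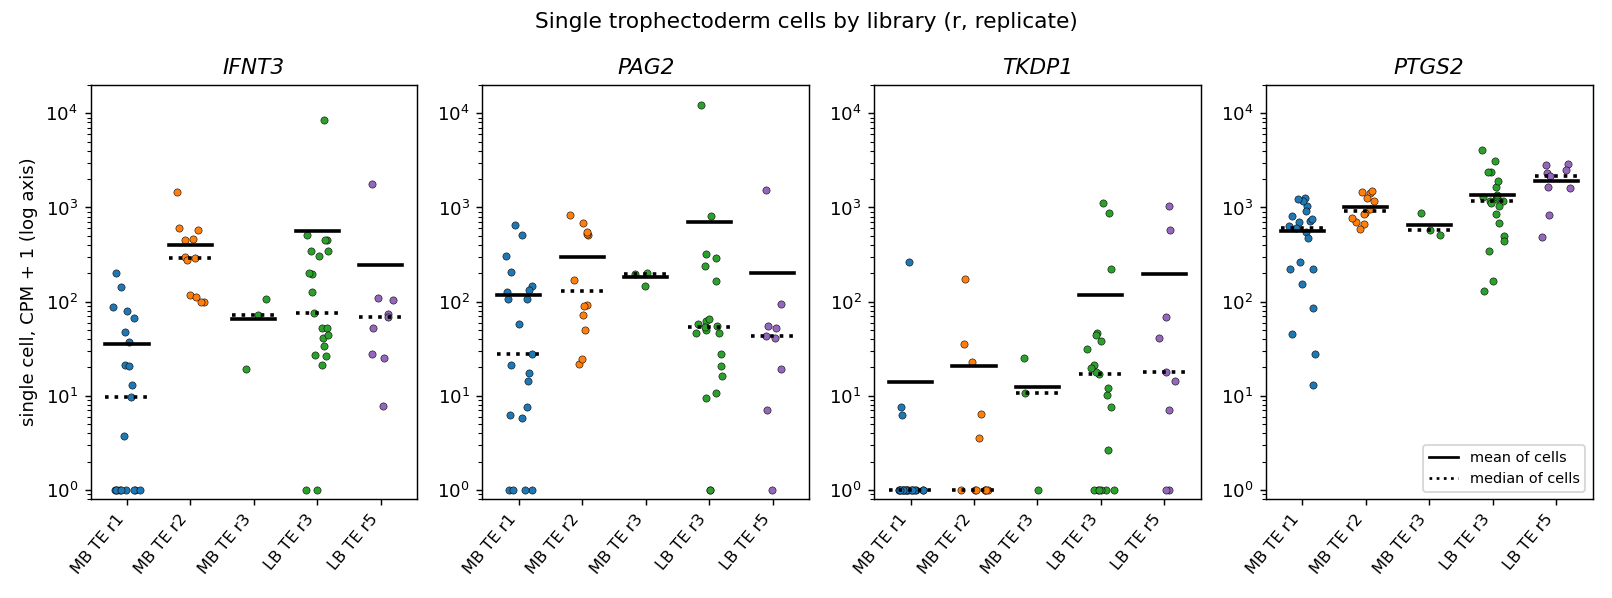
Single trophectoderm cells (points, coloured by replicate) in the 5 TE averages, with the level of IFNT3, PAG2, TKDP1 or PTGS2 on the vertical axis (CPM + 1, log axis). Solid lines are means and dotted lines medians over cells. In LB TE the means of IFNT3, PAG2 and TKDP1 lie far above the medians (555.9 against 75.3 CPM for IFNT3 in replicate 3), while those of PTGS2 lie together (1349 and 1181 in replicate 3).

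All comparisons were therefore recomputed without the cell that was highest for the gene in each average, a choice made after the values were seen. LB TE minus LB EPI kept 6 of its 7 calls. PAG2 was then higher by 1.81 (adjusted p = 0.0028) in place of 3.95, IFNT3 by 2.36 (adjusted p = 0.013) in place of 3.92 and TKDP1 by 2.45 (adjusted p = 8.1e-06) in place of 3.15, while IFNT2 was at 0.64 (adjusted p = 0.0612). PTGS2 (4.28) and PLAC8 (4.18) were as large as with all cells. LB TE minus LB PE lost IFNT3 (2.08, adjusted p = 0.0712) and PAG2 (1.22, adjusted p = 0.0979) and gained PAG11 (1.31, adjusted p = 0.0121). The PAG11 value of LB PE in replicate 5 was 1 read in 1 cell, so leaving out that cell took it from 17.7 CPM to 0. That gained call is therefore no support. For LB TE minus MB TE the PAG2 change turned from 1.11 to -0.95 (adjusted p = 0.527) and that of IFNT3 went from 1.88 to 0.51, while TKDP1 stayed at 2.55 (adjusted p = 0.000197). The day 8 differences of PAG2 (2.95), IFNT3 (2.47), PTGS2 (3.01) and PLAC8 (3.26) each passed as before.

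**Figure D4:**
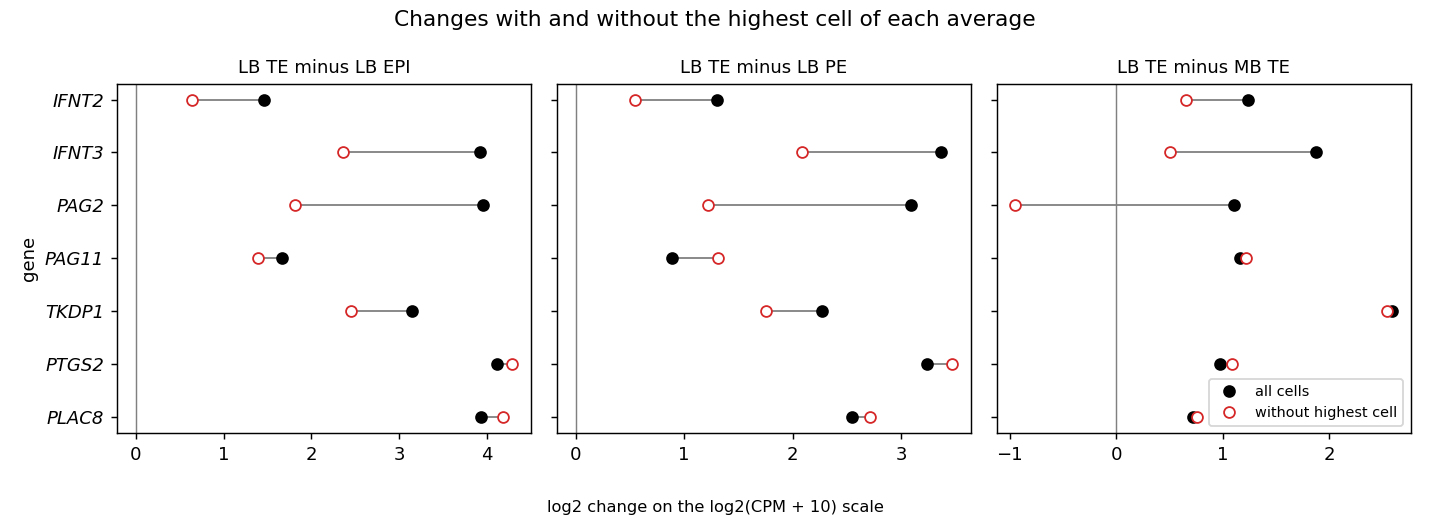
Log2 change of each gene on the log2(CPM + 10) scale (horizontal axis) with all cells (filled) and without the highest cell of each average (open), in 3 comparisons of LB TE. PAG2 moves from 3.95 to 1.81 in LB TE minus LB EPI and from 1.11 to -0.95 in LB TE minus MB TE, while PTGS2 goes from 4.11 to 4.28 and from 0.98 to 1.09.

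The reads given to the interferon tau copies did not keep a single ratio. Among cells with at least 50 reads of IFNT2 and IFNT3 together, 9 MB TE and 7 LB TE cells, the IFNT2 share of these reads ran from 0 to 28.7%. It was 29 of 101 reads in an LB TE cell of replicate 3 (28.7%, exact binomial interval of 95% from 20.1 to 38.6), and 194 of 1843 in the cell with the highest IFNT3 (10.5%, 9.16 to 12.0). In the highest LB TE cell of replicate 5 it was 1 of 483 (0.207%, 0.00524 to 1.15). IFNT2 reads were present in all 7 LB TE cells and absent from 7 of the 9 MB TE cells. All 7 of those MB TE cells came from replicate 2, and 5 of the 7 LB TE cells from replicate 3, so stage and library cannot be told apart in these counts. The MB TE cell with the most IFNT2 had 28 of 752 reads (3.72%, 2.49 to 5.34). These are shares of assigned reads, not of molecules, and the intervals cover counting error only.

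After depth was made equal, the shares of cells with an IFNT3 read stood in the order of the class means, while those for PAG2 and TKDP1 did not. For each of these genes the intervals of classes next in order overlapped. With every cell thinned to 20000 reads, an IFNT3 read was found in 77.4% of 31 LB TE cells (exact interval 58.9 to 90.4), 56.8% of 37 MB TE cells (39.5 to 72.9), 25.0% of 20 LB PE cells (8.66 to 49.1), 20.9% of 43 LB EPI cells (10 to 36.0) and 12.8% of 47 MB ICM cells (4.83 to 25.7). In the classes of days 6 and 7 it was found in 6.0% of 50 Morula cells (1.25 to 16.5) and 2.78% of 36 EB cells (0.0703 to 14.5). PAG2 was found in 54.8% of LB TE (36.0 to 72.7), 70.3% of MB TE (53.0 to 84.1), 30.0% of LB PE, 16.3% of LB EPI (6.81 to 30.7), 27.7% of MB ICM (15.6 to 42.6), 13.9% of EB and 4.0% of Morula cells. MB TE above LB TE and MB ICM above LB EPI reverse the class means, but these intervals overlap. At 50000 reads MB TE was at 80.6% and LB TE at 76.7%, while MB ICM (44.2%) was below LB EPI (51.2%). Without thinning LB TE was at 90.3% and MB TE at 89.2%. TKDP1 was found in 32.3% of LB TE and 30.0% of LB PE cells, against 11.6% in LB EPI, 8.11% in MB TE and 4.26% in MB ICM. Without thinning the IFNT3 shares were 93.5% in LB TE, 75.7% in MB TE, 60% in LB PE, 73.3% in LB EPI and 39.2% in MB ICM. Epiblast and inner cell mass are not known as sources of interferon tau. Their shares and that of LB PE were above those of Morula and EB, with intervals that overlap, and their cells came from libraries that also held TE cells. The part of stray reads within a library in these shares was not tested.

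Within a library the placental genes were only loosely ranked alike across TE cells. Spearman's rho between IFNT3 and PAG2 was 0.08 and -0.02 in MB TE of replicates 1 and 2 (21 and 12 cells) and 0.16 and 0.13 in LB TE of replicates 3 and 5 (21 and 9 cells). Between PAG2 and PTGS2 it was 0.26, 0.06, 0.44 and 0.48 in the same order, and between IFNT3 and TKDP1 -0.15, 0.01, -0.23 and 0.07. IFNT3 against PTGS2 ran from -0.28 to 0.73. The cells of a library share its preparation and differ in depth, and weak values between such sparse genes describe these cells only.

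Other genes of the placental program were read from a list of 63 symbols, of which 18 were in the table and 14 tested, the members but PTGS2 included. It counted 4 genes up and 0 down in MB TE against MB ICM (median log2 change 0.51, all genes -0.04). There 5.97% of all genes tested were called higher and 4.11% lower. LB TE against LB EPI had 9 up and 1 down (1.56 against -0.04), beside 8.27% and 6.9% of all genes. LB TE against LB PE had 7 up and 0 down (1.22 against -0.02), beside 3.39% and 2.46%. The 9 include every member on the list, with IFNT2, whose call is no support, and the PAG1 entry. The 4 are the members IFNT3, PAG2 and PLAC8, and HSD3B1, and the 7 include PAG2, PLAC8, TKDP1 and IFNT3. These counts and medians are thus not those of the other genes alone. HSD3B1, which converts pregnenolone to progesterone, rose in MB TE by 1.65 (adjusted p = 0.0186), and in LB TE against LB EPI by 3.20 (adjusted p = 0.000106), with 166.9 ± 60.9 CPM in LB TE (SD, n = 2) and 10.5 ± 5.21 in LB EPI (n = 3). CYP11A1, which makes pregnenolone from cholesterol, stood at 214.1 ± 90 CPM in LB TE, 51.6 ± 51.3 in MB TE and 15.2 ± 12.1 in LB EPI, and rose in LB TE against LB EPI by 3.22 (adjusted p = 0.00166). SSLP1, a secreted Ly-6 relative, went the other way and fell by 2.05 (adjusted p = 0.04), from 570.9 ± 340 CPM in LB EPI to 126.1 ± 5.09 in LB TE. The table's PAG1 entry also rose in LB TE against LB EPI (1.11, adjusted p = 0.0153). The symbol PAG1 is shared by a signalling adaptor and a glycoprotein gene, so this row was not read as one of the family. The other steroid genes and PLAC9 were low: in LB TE (n = 2), STAR, which carries cholesterol into mitochondria, was at 11.6 ± 4.26 CPM, CYP19A1, the aromatase, at 1.92 ± 2.28, and PLAC9 at 1.56 ± 0.816.

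Of the prostaglandin list, with 40 symbols and 21 genes tested, PTGS2 included, 4 rose and 1 fell in MB TE against MB ICM. In LB TE against LB EPI 5 rose and 1 fell, and PTGS2 is among the genes that rose in both. Of all genes tested 5.97% were called higher and 4.11% lower in the first comparison, and 8.27% and 6.9% in the second. The list medians were 0.20 and 0.25 (all genes -0.04 in both), and 16 and 15 genes were not called. PTGES, which turns the product of PTGS2 into prostaglandin E2, rose by 2.78 in MB TE and 2.84 in LB TE, with 155.5 ± 77 CPM in MB TE (n = 3), 244.3 ± 73.9 in LB TE (n = 2) and 24.9 ± 8.39 in LB EPI (n = 3). AKR1B1, the enzyme that serves as prostaglandin F synthase in cattle, rose by 1.97 and 2.28, and stood at 250.6 ± 32.6 CPM in LB TE against 45.2 ± 2.69 in LB EPI. The fatty acid carrier FABP5 rose by 2.52 and 2.76. Its relative FABP3 fell, with changes of -2.49 on day 8 and -1.73 on day 9. PTGS1, the constitutive cyclooxygenase, was at or below 4.1 CPM in each class mean of days 8 and 9.

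Among 31 tested genes listed as regulators of interferon tau, 9 rose and 1 fell in MB TE against MB ICM (median 0.51). There 5.97% of all genes tested were called higher and 4.11% lower. In LB TE against LB EPI 9 rose and 4 fell (median 0.32), beside 8.27% and 6.9% of all genes. CDX2, a homeobox factor that acts on interferon tau promoters, rose by 2.47 on day 8 and by 2.19 on day 9, with 63.4 ± 9.24 CPM in MB TE and 40.1 ± 6.78 in LB TE. GATA3 rose by 1.74 and 3.08, and ELF3 rose by 2.13 on day 8. GATA2 rose by 2.66 on day 8. POU5F1, known to hold back ETS2 at these promoters, fell, with changes of -0.98 and -2.75. ETS2 itself, the best known activator, was at 17.1 ± 15.1 CPM in MB TE (n = 3), 27.1 ± 17.3 in LB TE (n = 2) and 57.0 ± 16.6 in LB EPI (n = 3), and was not called in either TE comparison. Many of these factors are trophectoderm markers themselves, and the classes were made on these cells.

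The interferon response list, with 41 symbols and 17 genes tested, had 1 gene up and 1 down in MB TE against MB ICM. It had 0 up and 2 down in LB TE against LB EPI (medians -0.15 and -0.10). The shares of all genes called higher and lower were 5.97% and 4.11% in the first comparison, and 8.27% and 6.9% in the second. IRF7, a factor that interferon induces, was up on day 8 by 1.54 (adjusted p = 0.0103), at 48.6 ± 18.6 CPM in MB TE and 11.7 ± 12 in MB ICM. HERC5, a ligase for the ubiquitin-like protein ISG15, fell, with changes of -1.89 on day 8 and -3.98 on day 9, from 363 ± 70.7 CPM in LB EPI to 16.4 ± 16.1 in LB TE. The kinase JAK1, which signals below the interferon receptor, fell by 2.10 on day 9. ISG15 was at 3.57 ± 0.647 CPM and MX1, also a classic interferon target, at 6.31 ± 8.92 in LB TE. The receptor genes IFNAR1 and IFNAR2 were at 2.58 ± 0.173 and 0.219 ± 0.31 CPM in LB TE, and IFNAR2 had no read in the averages of MB ICM, MB TE and LB EPI. Of 9 tested protease inhibitors and aspartic proteases related to the Kunitz and glycoprotein families, 0 was called in MB TE against MB ICM, and 1 rose (SPINT1, 1.41) and 1 fell (TFPI, by 1.51) in LB TE against LB EPI.

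Genes whose levels followed the same course were listed for IFNT2, PAG2 and PTGS2 by Pearson's r of log2(CPM + 10) over the 16 averages, which share libraries. Nearest to PAG2 were SLC10A1 (0.97), PRSS8 (0.96), DSC2 (0.95), AIF1 (0.95) and PTTG1IP (0.95). PTGS2 had PLS1 (0.96), FXYD4 (0.96), SCP2 (0.95), PRSS8 (0.95) and SLC10A1 (0.94), so PRSS8 and SLC10A1 were near both. For IFNT2 the nearest genes were PLA2G3 (0.96), RUM1 (0.94), SLC9A2 (0.94), TMEM40 (0.91) and WNT4 (0.91). IFNT2 values rest mainly on the LB TE average of replicate 3, the only one through which it met the filter of 10 CPM. Its list thus mostly reflects that 1 average and is no support for a course of its own.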

How the data were processed

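Per the submitters' processing notes, reads were handled with Trim Galore, HISAT2, featureCounts and Seurat on the build ARS-UCD1.2. Their versions and order, cell filters and any use of molecular identifiers were not given in the sources used here. For 286 cells and 18825 genes the authors deposited natural log values, as ln of 1 plus the value per 10000, and their cell table lists 288 cells. Undoing the log gave sums of 10000 per cell and whole reads for 100% of values (tolerance 0.1 reads), 48628984 in all. These whole counts are called reads here, though they could be counts of molecules. No doublet caller was run.

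CPM values were averaged per library and class (at least 3 cells) and fitted as log2(CPM + 10) with limma 3.58.1 (trend, robust; R 4.3.3, statmod 1.5.0), with class as the factor and library as a random block. Genes needed 10 CPM in at least 1 average. The block pairs averages of the same library, whose deviations had a consensus correlation of 0.18. The script was tested on simulated data. Descriptions used Python 3.11.15, pandas 2.3.3, numpy 2.4.6 and scipy 1.17.1. The members, lists, tests and alternatives were chosen with earlier results of these data known. Named besides the members are listed placental genes, up to 4 called genes per list and comparison with the smallest adjusted p, and the 5 genes most like IFNT2, PAG2 and PTGS2. The levels of PTGS1, ETS2, ISG15, MX1, IFNAR1 and IFNAR2 were added for their known roles after values were seen. So were the changes of FABP3 on day 9 and of AKR1B1 and POU5F1 on day 8, set beside those of the other day.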

Additional observations from a re-analysis of the deposited data

How the results depend on the processing

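Of 851 results of single members under 16 other settings, 794 kept direction and call, 31 lost a call, 12 gained one and 14 turned direction; the causes were not tested. The number of members called went from 1 to 0 in LB TE minus MB TE with a pseudocount of 1, from 0 to 1 (TKDP1) in the day 9 against day 8 difference with a pseudocount of 50 or without the highest cell, and from 5 to 3 in LB TE minus LB PE with limma-voom on summed reads. With averages of at least 1 cell, it was 2 in MB TE minus MB ICM, 2 in LB TE minus LB PE and 0 in LB TE minus MB TE. Leaving out 1 library gave 4 to 5 in MB TE minus MB ICM, 5 to 7 in LB TE minus LB EPI, 3 to 5 in LB TE minus LB PE, 0 to 1 in LB PE minus LB EPI, 0 to 2 in LB TE minus MB TE and 2 to 4 in MB TE minus EB. Where this left 1 average in a class, that average was assumed to vary like the other classes. Without the library block all 55 member results kept direction and call, while all genes called went from 734 to 439 in LB TE minus LB PE and from 676 to 387 in LB PE minus LB EPI.

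Over all settings, genes called ranged from 488 to 1694 in MB TE minus MB ICM (main 1264), 851 to 3167 in LB TE minus LB EPI (1902), 168 to 1246 in LB TE minus LB PE (734), 260 to 994 in LB PE minus LB EPI (676), 3 to 86 in LB TE minus MB TE (24), 28 to 403 in MB TE minus EB (125), 1 to 83 in EB minus Morula (10) and 0 to 155 in the day 9 against day 8 difference (46). Directions that turned were those of uncalled values. With the mean of log2 values, PAG2 was at -0.77 in LB TE minus MB TE, PLAC8 at 0.10 in EB minus Morula, and the day 9 against day 8 difference was -0.18 for IFNT3 and -0.97 for PAG2. Without the highest cell, PAG2 was at -0.95, PLAC8 at 0.0055, IFNT2 at -0.049 in MB TE minus MB ICM, and the day difference -0.11 for IFNT3 and -1.13 for PAG2 (-0.15 with at least 1 cell). Leaving out 1 library gave -0.64 (without replicate 3) to 2.42 for PAG11 in LB TE minus LB PE, and -0.36 (without replicate 6) to 0.16 for PAG2 in EB minus Morula. PAG2 was there at -0.36 with at least 1 cell, where TKDP1 was at 0.20.

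Shares of cells with a read depend on depth. At 50000 reads IFNT3 was found in 48.8% of LB EPI cells, PAG2 in 44.2% of MB ICM, 51.2% of LB EPI and 76.7% of LB TE, and TKDP1 in 56.7% of LB TE. Without thinning IFNT3 was found in 39.2% of MB ICM, 75.7% of MB TE, 73.3% of LB EPI and 93.5% of LB TE cells. PAG2 was found in 72.5% of MB ICM, 89.2% of MB TE, 77.8% of LB EPI and 90.3% of LB TE, and TKDP1 in 15.7%, 27.0%, 60% and 71.0% of these. A planned count model on summed reads was not run, since the deposited unit is a log value, and limma-voom took its place. The settings without the highest cell, with at least 1 cell and with limma-voom were chosen after the data were seen. In the shallowest LB PE cell, of 5703 reads, 1 read is worth 175.3 CPM.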

Other observations

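A few cells fell outside the averages because their library held fewer than 3 of their class. A single LB TE cell of replicate 2, with 747345 reads the deepest of all, had IFNT3 at 108.4 CPM, PAG2 at 56.2, PAG11 at 45.5, PTGS2 at 773.4 and PLAC8 at 4192, and no TKDP1 read. A single MB TE cell of replicate 5 had PLAC8 at 3034 CPM and PAG2 at 227.9, and PTGS2 at 48.8, where the 37 MB TE cells ran from 12.1 through a median of 697.9 to 1482 CPM. Of 2 EB cells of replicate 1, 1 held PTGS2 at 1058 CPM (31 reads) and the other none. With averages of 1 cell admitted, PTGS2 lost its call in MB TE minus MB ICM (1.6, adjusted p = 0.435), in LB TE minus LB PE (2.83, adjusted p = 0.205) and in MB TE minus EB (2.23, adjusted p = 0.275). IFNT3 lost its call in the first of these (1.78, adjusted p = 0.143) and, with TKDP1, in the second (2.09 and 1.51, adjusted p = 0.169 and 0.312), and TKDP1 also in LB TE minus MB TE (1.71, adjusted p = 0.798).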
